A study of Oryza sativa Japonica Group with 8 samples.

Results

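The genes described here are the transcription factor and zinc finger genes among the transcripts that differed between dcl3b knockdown and wild type rice panicles. They were chosen by words in the gene descriptions of the authors' lists of changed genes, such as MYB, NAC, WRKY, AP2, MADS, helix-loop-helix, transcription factor or zinc finger. The words matched 38 of the 1174 listed genes. In 31 of them a rule word stands as a word of the description. Of these, 27 are described as transcription factors or by a family known to bind DNA. The other 4, LOC_Os03g05270, LOC_Os01g56040, LOC_Os06g04920 and LOC_Os04g17200, are described by zinc fingers that need not bind DNA, and they are counted among the 31 although their descriptions do not name them transcription factors. The remaining 7 of the 38 are described as ribosome inactivating proteins and matched only because the letters nac occur inside "inactivating". Those 7 are no transcription factors by their description, and their values are given apart. The rule also left out 4 regulators, all 4 of them listed as lower.

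All plants were Oryza sativa japonica grown in a paddy field, and young panicles were collected ahead of the heading date. Wild type plants were set against a dcl3b knockdown mutant, in which a Dicer-like endonuclease of the small RNA pathway has reduced expression. The labels name neither the construct nor the number of lines. Messenger RNA was sequenced in 3 libraries of each genotype and small RNA in 1 library of each.

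Transcription factors bind short DNA sequences near genes and raise or lower their transcription, and plant genomes hold them in large families that share a DNA-binding domain. In the panicle, MADS and AP2 proteins are known for setting floral organ identity and meristem fate, and MYB and helix-loop-helix proteins for directing anther development. NAC and WRKY proteins are known for organ boundaries, cell walls, senescence and responses to stress and pathogens.

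The targeted gene, LOC_Os10g34430, was lower in every knockdown library, at 0.39, 0.50 and 0.44 FPKM (fragment counts scaled to transcript length and library depth) against 0.97, 0.98 and 0.88 FPKM in wild type. Values of libraries are listed throughout in the order of replicates 1, 2 and 3. Sequencing depth is unknown for the mRNA libraries. Their tables hold called genes only, so the tissue label could not be checked: none of 12 floral organ identity genes named by locus was among the listed genes (0 of 12), which does not say whether they were expressed. By their descriptions 10 listed genes were anther or pollen proteins, 4 higher and 6 lower. The summed level of those 10 was 511 to 648 FPKM in wild type, against 448 to 900 FPKM in the knockdown. Over the 6 that fell it was 435 to 475 FPKM in wild type, against 116, 301 and 161 FPKM in knockdown replicates 1, 2 and 3. Over the 4 that rose it was 124, 201 and 36.1 FPKM in wild type, against 408, 147 and 739 FPKM in the knockdown, so that the sums of the genotypes overlapped. The 1 listed gene with a leaf description, a chlorophyll-binding protein, was at 11.4 to 25.2 FPKM in wild type, against 29.5 to 69.7 FPKM in the knockdown. The 22 listed genes matched by the endosperm words were all lipid transfer family genes, 8 higher and 14 lower. The 14 summed to 1016 to 1529 FPKM in wild type, against 330 to 879 FPKM in the knockdown, and the 8 to 51.8 to 133 FPKM, against 101 to 293 FPKM. The part of such cells in the levels of the 31 genes was not tested. In whole panicles, fewer cells of a type and less RNA per cell cannot be told apart.

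Most of the 31 genes were lower in the knockdown. Of the 31 genes, 24 (77.4%) were lower and 7 (22.6%) higher in the knockdown by the authors' call. Its limits are not stated. Every listed gene had a log2 fold change of at least 1 in size and an adjusted p below 0.05. Among all 1174 listed genes 45.1% were lower and 54.9% higher. Among the 692 with a description outside transposons 52.6% were lower, and 54.2% of the 671 of those above 0 in wild type. The lists themselves are a small share of the genes the authors tested: the ratio of p to adjusted p gave 34271 genes, of which 1.55% were called lower, 1.88% higher and 3.43% either. Without the 4 zinc finger genes that need not bind DNA, 21 were lower and 6 higher. How many transcription factor genes were tested and not called is not known from the files. Raising the limit to 2 on the log2 scale left 5 lower and 5 higher genes, an even split, beside 7.67% lower and 33.7% higher among all listed genes. Tightening the adjusted p to 0.01 left 14 lower and 4 higher, beside 27.9% and 40.4% of all listed genes. A limma re-test on log2(FPKM + 0.5) over the listed genes, which were selected on the same values, called 22 lower and 6 higher, beside 41.1% and 43.9% of all listed genes. It called 13 lower and 3 higher without wild type replicate 3 and 20 lower and 3 higher without wild type replicate 2. The share of all listed genes called under those settings was not counted. The smaller counts therefore say nothing particular about the 31 genes.

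Genes at higher and lower levels were also counted apart, by the mean of all 6 libraries, a split made after seeing the data. Of the 11 genes above 1 FPKM, 10 were lower and 1 higher, where 52.7% of all listed genes above that level were lower. Of the 20 at or below 1 FPKM, 14 were lower and 6 higher, where 38.7% of such listed genes were lower. The 24 that fell had a median of 1.18 FPKM in wild type, against 0.435 FPKM in the knockdown. In the authors' deposited table their median log2 fold change stood at -1.40, beside -1.44 for all listed genes that fell. For the 6 that rose from above 0, the median was 2.33, beside 2.04 for the 511 such genes in the lists.

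**Figure D1:**
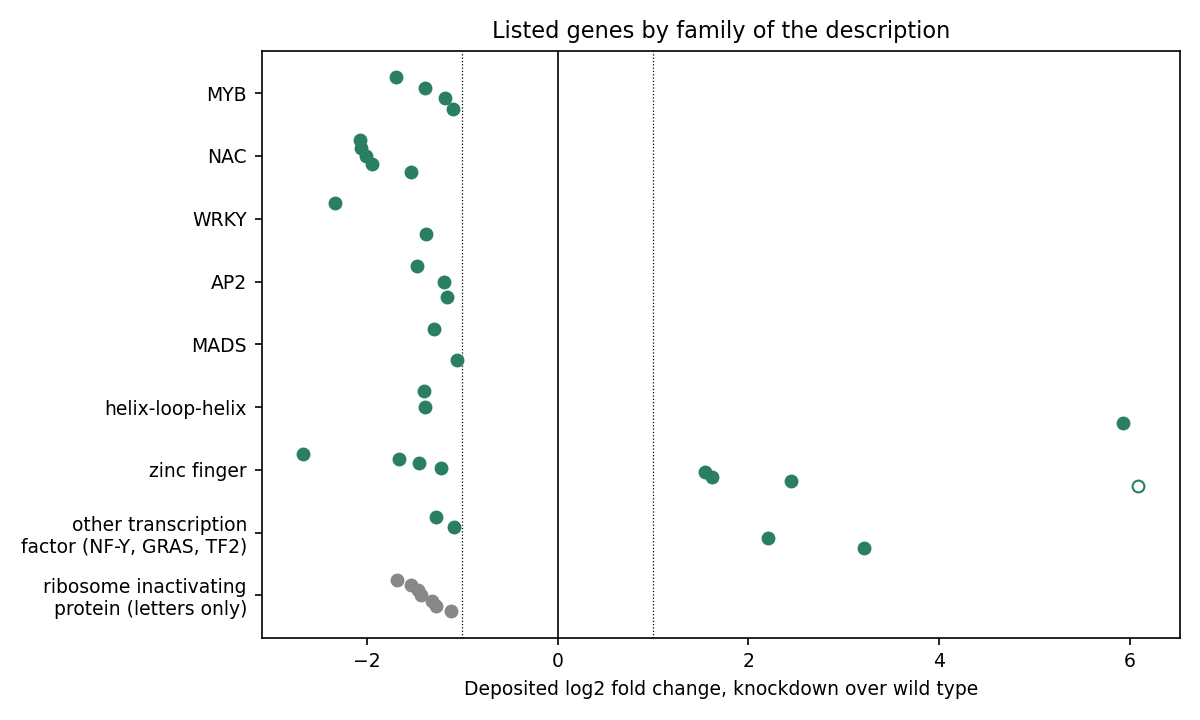
Knockdown over wild type log2 fold change from the authors' deposited table (x axis) for each gene, by family of the description (y axis). Dotted lines mark -1 and 1, between which no listed gene lies, and the open circle is the gene listed at 0 in wild type. Every point of the MYB, NAC, WRKY, AP2 and MADS families lies left of -1, and the 7 points right of 1 are in the helix-loop-helix, zinc finger and other transcription factor groups.

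The families divided by direction. Among the 31 genes, all of the MYB (4), NAC (5), WRKY (2), AP2 (3) and MADS (2) families fell. Of all listed genes 45.1% were lower, and 52.6% of those with a description outside transposons. Helix-loop-helix genes (2 fell, 1 rose), zinc finger genes (4 fell, 4 rose) and the other transcription factors (2 fell, 2 rose) went both ways. The lists held 0 genes described as bZIP, homeobox, B3 or GATA factors. The 4 regulators left out by the rule, all listed as lower, are in none of these counts. The counts are small, and these families were picked with earlier results of the data known, so no test was made of the division.

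The MYB genes, whose family regulates anther development, cell shape and phenylpropanoid metabolism, included the highest levels among the 31 genes. LOC_Os08g33660 was at 16.3, 8.76 and 19.4 FPKM in wild type, against 4.70, 11.8 and 4.27 FPKM in the knockdown. Knockdown replicate 2 lay above wild type replicate 2, so the genotypes overlapped. The means were 14.8 ± 5.46 and 6.91 ± 4.20 FPKM (SD, n = 3 each), a 2.15-fold difference. The difference was 3.30-fold without knockdown replicate 2 and 1.80-fold without knockdown replicate 3. LOC_Os08g33660 was called lower in the authors' deposited table (log2 fold change -1.1, adjusted p = 0.0250), while in a limma re-test over the listed genes its adjusted p was 0.0640. Here and below, the authors' values are adjusted over 34271 genes and the re-test's over the 1174 listed ones. The adjusted p values are therefore not on the same scale. LOC_Os03g18480 had the largest change of the 4 MYB genes, with 9.27, 5.08 and 10.5 FPKM in wild type against 1.20, 4.15 and 2.27 FPKM. Its libraries did not overlap, and the mean was 3.26-fold lower in the knockdown (8.27 ± 2.83 against 2.54 ± 1.49 FPKM, SD, n = 3 each; authors' deposited table, log2 fold change -1.70, adjusted p = 0.000166).

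The other MYB genes had lower levels. LOC_Os04g47890 was at 2.03, 1.31 and 2.19 FPKM in wild type, against 0.65, 1.32 and 0.45 FPKM in the knockdown. There the replicate 2 libraries of the genotypes were level with each other, and the rest were well apart. LOC_Os11g10130 varied least of the 4, at 1.18, 1.29 and 1.05 FPKM in wild type, against 0.40, 0.58 and 0.35 FPKM in the knockdown. It was 2.65-fold lower (authors' deposited table, log2 fold change -1.39, adjusted p = 2.44e-05). All 4 MYB genes had their highest knockdown value in replicate 2, as did 67.2% of all listed genes that fell.

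The NAC genes, described as no apical meristem proteins after the petunia gene that separates organs at the shoot tip, had large fold changes at low levels. In the authors' deposited table their log2 fold changes lay between -2.07 and -1.54. In all 5 the libraries of the genotypes did not overlap, as in 89.1% of all listed genes that fell. LOC_Os12g23090 was at 0.50, 0.62 and 0.59 FPKM in wild type. In the knockdown it was listed at 0 in replicate 1 and at 0.29 and 0.11 FPKM in replicates 2 and 3. The mean was 4.28-fold lower with every library, 10.4-fold lower without knockdown replicate 2 and 2.85-fold lower without knockdown replicate 1. LOC_Os08g23880 was 4.09-fold lower, at 0.35, 0.51 and 0.49 FPKM in wild type, against 0.14, 0.15 and 0.04 FPKM in the knockdown.

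A pair of NAC genes stood near 0.25 FPKM in wild type. LOC_Os09g12380 went from 0.21, 0.26 and 0.28 FPKM to 0.07, 0.07 and 0.03 FPKM, and was 4.41-fold lower. LOC_Os05g34310 went from 0.21, 0.25 and 0.32 FPKM to 0.04, 0.04 and 0.11 FPKM. It was 4.11-fold lower, and 6.50-fold lower without knockdown replicate 3, its highest knockdown library. Without knockdown replicate 1 it was 3.47-fold lower. At such levels the 2 decimals of the deposited values are a visible part of the differences. The fifth, LOC_Os10g27390, was the most abundant and the least separated. It was at 1.26, 0.71 and 1.70 FPKM in wild type, against 0.38, 0.65 and 0.20 FPKM in the knockdown, so that the replicate 2 libraries of the genotypes nearly met.

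The WRKY genes differed in how well the genotypes separated. WRKY factors bind the W-box and are best known from defence against pathogens. LOC_Os05g49620, described as WRKY19, was at 0.97, 0.72 and 0.77 FPKM in wild type, against 0.21, 0.16 and 0.08 FPKM in the knockdown. It fell 5.47-fold, from 0.820 ± 0.132 to 0.150 ± 0.0656 FPKM (SD, n = 3 each; authors' deposited table, log2 fold change -2.34, adjusted p = 3.21e-05), and every knockdown value was far below every wild type value. LOC_Os01g74140, described as WRKY17, was at 0.93, 0.67 and 1.75 FPKM in wild type, against 0.27, 0.72 and 0.29 FPKM in the knockdown. Its replicate 2 libraries crossed. The mean difference of 2.62-fold became 3.99-fold without knockdown replicate 2 and 1.875-fold without wild type replicate 3. The authors called LOC_Os01g74140 (adjusted p = 0.0386 in their deposited table), while the limma re-test gave an adjusted p of 0.0539.

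The AP2 domain genes belong to a family that includes regulators of spikelet meristems and of responses to ethylene, cold and drought. None of the 3 overlapped between the genotypes, where 89.1% of all listed genes that fell were without overlap. LOC_Os04g18650 was at 7.51, 8.38 and 7.35 FPKM in wild type, a narrow range, and at 2.36, 5.13 and 0.68 FPKM in the knockdown, a wide one. Its mean was 2.84-fold lower, 5.10-fold lower without knockdown replicate 2 and 2.07-fold lower without knockdown replicate 3. LOC_Os05g25260 went from 4.30, 3.08 and 4.93 FPKM to 1.85, 2.12 and 1.37 FPKM, a 2.31-fold fall. LOC_Os12g03290 went from 1.88, 1.82 and 1.55 FPKM to 0.66, 1.01 and 0.66 FPKM, a 2.25-fold fall (authors' deposited table, log2 fold change -1.16, adjusted p = 1.45e-05).

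The MADS genes came from both branches of the family. LOC_Os02g49840 is OsMADS57, a MIKC-type gene of the branch that holds the floral organ identity genes, and is known in rice as a regulator of tiller outgrowth. It was at 2.39, 1.80 and 2.36 FPKM in wild type, against 0.90, 0.87 and 0.90 FPKM in the knockdown. The knockdown libraries were nearly equal and far below wild type: the mean fell 2.45-fold, from 2.18 ± 0.332 to 0.890 ± 0.0173 FPKM (SD, n = 3 each; authors' deposited table, log2 fold change -1.29, adjusted p = 1.32e-09). LOC_Os01g68560 is OsMADS98, of the M-beta type, a group known in Arabidopsis mostly from the female gametophyte and the seed. It went from 0.66, 0.69 and 0.89 FPKM to 0.31, 0.47 and 0.27 FPKM, a 2.13-fold fall without overlap, and had the smallest fold change of the 24 genes in the authors' deposited table (-1.06, adjusted p = 0.0401).

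**Figure D2:**
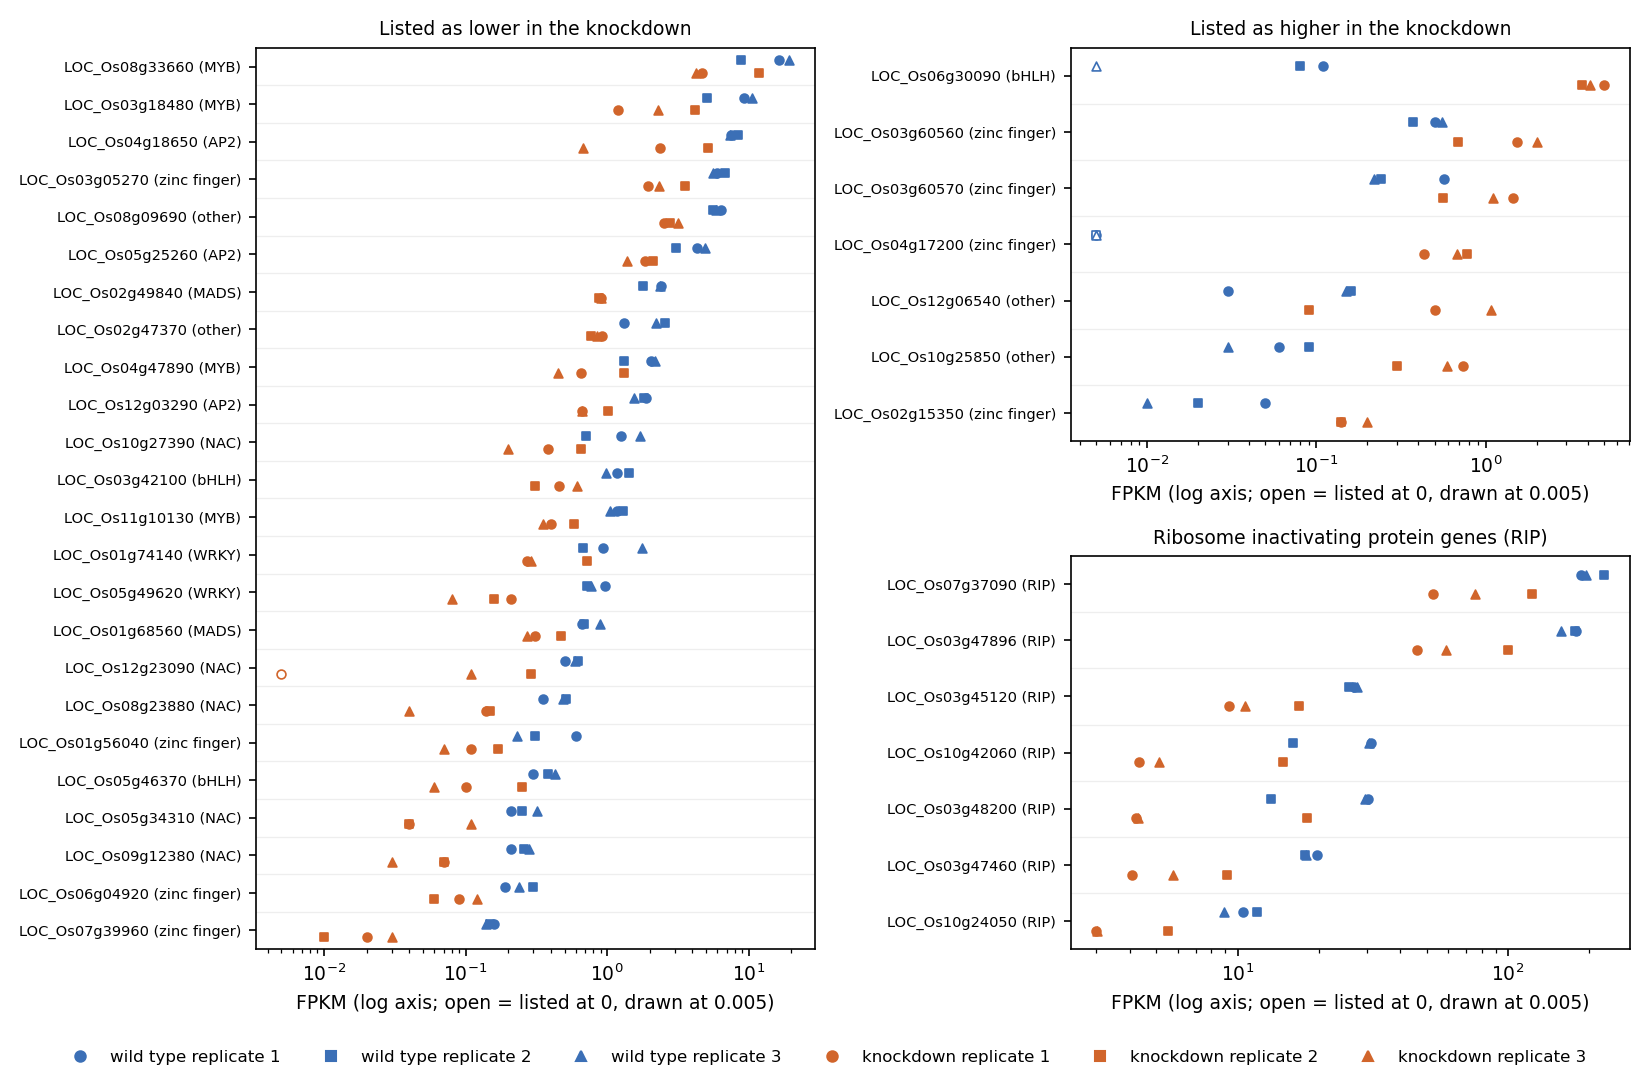
FPKM of each library (x axes, log scale) for the 24 genes listed as lower, the 7 listed as higher and the 7 ribosome inactivating protein genes (y axes, with the family in brackets), sorted by level. Blue is wild type and orange the knockdown, the marker shape gives the replicate and open markers are values listed at 0. The genotypes are separate in 21 of the 24, 5 of the 7 and 6 of the 7 genes. Among all listed genes they are separate in 89.1% of those that fell and 84.6% of those that rose.

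Helix-loop-helix proteins bind E-box sequences as dimers, and members of the family control anther development and light and hormone responses. The family held the largest rise from a level above 0 among the 31 genes. LOC_Os06g30090 was at 0.11 and 0.08 FPKM in wild type replicates 1 and 2 and listed at 0 in replicate 3, and it stood at 5.02, 3.70 and 4.11 FPKM in the knockdown. Every knockdown library was thus far above every wild type library. The means were 0.0633 ± 0.0569 and 4.28 ± 0.676 FPKM (SD, n = 3 each), a 67.5-fold ratio that rests on wild type values near the rounding of the files. The ratio was 107-fold without wild type replicate 1 and 45.0-fold without wild type replicate 3. The authors' deposited table lists LOC_Os06g30090 at 5.93 on the log2 scale (adjusted p = 8.14e-34).

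The other helix-loop-helix genes fell without overlap, as did 89.1% of all listed genes that fell. LOC_Os03g42100 went from 1.17, 1.42 and 0.98 FPKM to 0.46, 0.31 and 0.61 FPKM, a 2.59-fold fall. Replicate 2 gave here the lowest knockdown value. LOC_Os05g46370 went from 0.30, 0.38 and 0.43 FPKM to 0.10, 0.25 and 0.06 FPKM. It was 2.71-fold lower, and 4.63-fold lower without knockdown replicate 2, the knockdown library nearest to wild type. Without knockdown replicate 3 it was 2.11-fold lower. Its adjusted p in the authors' deposited table was 0.0482, the highest of the 31 genes.

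Nuclear transcription factor Y is a complex of subunits that binds the CCAAT box, and a subunit gene was found in each direction. LOC_Os08g09690 fell in parallel in all libraries, from 6.37, 5.61 and 5.90 FPKM to 2.52, 2.76 and 3.16 FPKM. The change was 2.12-fold, from 5.96 ± 0.384 to 2.81 ± 0.323 FPKM (SD, n = 3 each; authors' deposited table, log2 fold change -1.09, adjusted p = 6.09e-10), the lowest adjusted p among the 24. LOC_Os10g25850 rose 9.0-fold, from 0.06, 0.09 and 0.03 FPKM to 0.73, 0.30 and 0.59 FPKM (authors' deposited table, log2 fold change 3.21, adjusted p = 4.96e-12). The genotypes did not overlap in either gene, as in 89.1% of all listed genes that fell and 84.6% of those that rose. Which subunit each gene encodes is not in the descriptions.

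The remaining transcription factors also went both ways. LOC_Os02g47370, described as transcription factor TF2, was at 1.31, 2.58 and 2.21 FPKM in wild type, against 0.92, 0.77 and 0.85 FPKM in the knockdown, a 2.40-fold fall. LOC_Os12g06540 belongs to the GRAS family, whose members act in gibberellin signalling and meristem maintenance. It was at 0.03, 0.16 and 0.15 FPKM in wild type, against 0.50, 0.09 and 1.08 FPKM in the knockdown. Knockdown replicate 2 lay below wild type replicates 2 and 3, and the 4.91-fold mean ratio became 2.60-fold without knockdown replicate 3. The authors called LOC_Os12g06540 higher (adjusted p = 0.0444 in their deposited table), while the limma re-test gave an adjusted p of 0.120.

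Zinc finger genes were the group with the most genes that rose. A pair of C2H2 genes with consecutive locus numbers rose together. LOC_Os03g60560, described as ZOS3-21, went from 0.50, 0.37 and 0.55 FPKM to 1.52, 0.69 and 2.0 FPKM, and LOC_Os03g60570, described as ZOS3-22, from 0.57, 0.24 and 0.22 FPKM to 1.45, 0.56 and 1.1 FPKM. The rises were 2.96-fold and 3.02-fold. In both genes replicate 2 gave the lowest knockdown value, and in LOC_Os03g60570 it lay just under wild type replicate 1. How reads shared by neighbouring C2H2 genes were counted is not stated in the labels.

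The other zinc finger genes that rose were nearly silent in wild type. LOC_Os04g17200, of the GRF zinc finger family, had 0 listed for each of the 3 wild type libraries, against 0.43, 0.77 and 0.68 FPKM in the knockdown (adjusted p = 5.99e-05 in the authors' deposited table). LOC_Os02g15350 encodes a Dof protein, a plant-specific class with a single zinc finger. It went from 0.05, 0.02 and 0.01 FPKM to 0.14, 0.14 and 0.20 FPKM, a 6.0-fold ratio of values near the rounding limit. The ratio was 10.7-fold without wild type replicate 1 and 4.57-fold without wild type replicate 3. The genotypes did not overlap in these genes, as in 84.6% of all listed genes that rose.

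The zinc finger genes that fell did so without overlap in all 4 cases, beside 89.1% of all listed genes that fell. LOC_Os03g05270 carries RING and CHY zinc fingers, as ubiquitin ligases of that class do. It was the most abundant of them, at 5.95, 6.79 and 5.61 FPKM in wild type, against 1.95, 3.55 and 2.34 FPKM in the knockdown, a 2.34-fold fall (authors' deposited table, log2 fold change -1.23, adjusted p = 2.23e-07). The C2H2 gene LOC_Os07g39960, described as ZOS7-07, had the deepest fall of the 31 genes in the authors' deposited table, with a log2 fold change of -2.67, but at 0.16, 0.15 and 0.14 FPKM in wild type against 0.02, 0.01 and 0.03 FPKM it was also the lowest expressed of the 24. LOC_Os01g56040 encodes a stress-associated A20 and AN1 protein, and went from 0.60, 0.31 and 0.23 FPKM to 0.11, 0.17 and 0.07 FPKM. Its 3.26-fold fall was 2.31-fold without wild type replicate 1 and 4.22-fold without knockdown replicate 2. LOC_Os06g04920, described only as a zinc finger family protein, went from 0.19, 0.30 and 0.24 FPKM to 0.09, 0.06 and 0.12 FPKM.

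**Figure D3:**
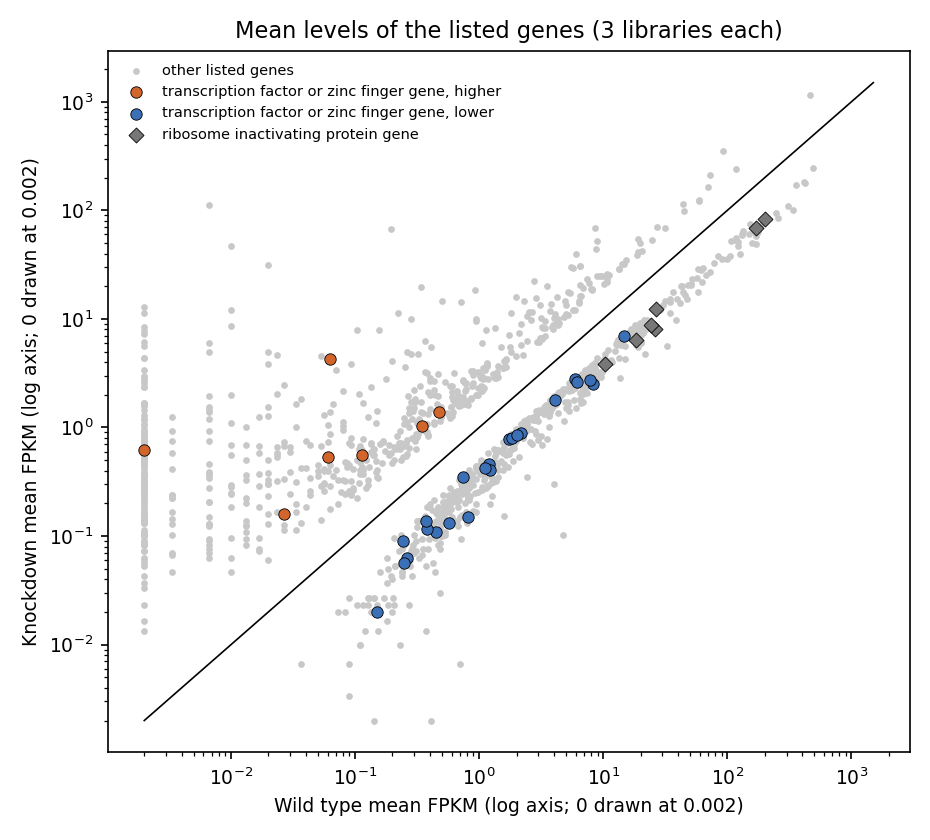
Mean FPKM of the 3 knockdown libraries (y axis) against that of the 3 wild type libraries (x axis), both on log scales, for the 1174 listed genes. The line marks equal levels. The 7 of the 31 genes that rose (orange) all start below 0.5 FPKM, and the 24 that fell (blue) run along the lower band up to 14.8 FPKM.

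The 7 ribosome inactivating protein genes all fell. Proteins of this class remove an adenine from ribosomal RNA and so stop translation, and they are not regulators of transcription. Their levels were mostly above those of the 31 genes, with means of 10.4 to 203 FPKM in wild type, against 3.85 to 83.9 FPKM in the knockdown. The highest was LOC_Os07g37090, at 186, 227 and 195 FPKM in wild type, against 53.0, 123 and 75.7 FPKM in the knockdown, followed by LOC_Os03g47896, at 179, 178 and 157 FPKM against 46.0, 100.4 and 59.1 FPKM. Both were lower in every knockdown library, by 2.42-fold and 2.50-fold in the mean.

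All 7 of these genes had their highest knockdown value in replicate 2, as did 67.2% of all listed genes that fell. In the authors' deposited table their log2 fold changes lay between -1.69 and -1.12. The steepest was in LOC_Os10g42060, at 31.1, 16.1 and 30.7 FPKM against 4.31, 14.7 and 5.12 FPKM. Its 3.23-fold mean fall was 5.51-fold without knockdown replicate 2 and 2.62-fold without knockdown replicate 1. In LOC_Os03g48200 the genotypes overlapped, with wild type replicate 2 at 13.4 FPKM and knockdown replicate 2 at 18.02 FPKM. Its 2.77-fold fall was 5.77-fold without knockdown replicate 2 and 2.19-fold without knockdown replicate 1. LOC_Os03g47460, LOC_Os03g45120 and LOC_Os10g24050 were 2.91-fold, 2.18-fold and 2.70-fold lower without overlap. Of all listed genes that fell 89.1% were without overlap. The genes share a description and may share reads, and how such reads were counted is not stated in the labels.

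In most of the 31 genes the genotypes were separate, as in most of all listed genes. The highest knockdown value was under the lowest wild type value in 21 of the 24 that fell (87.5%), beside 89.1% of all listed genes that fell. For the 7 that rose, 5 were separate, beside 84.6%. The lists were chosen on these same values. Without knockdown replicate 2 the counts were 24 of 24 and 7 of 7, beside 98.9% and 96.7% of all listed genes of each direction. Without wild type replicate 2 they were 24 of 24 and 5 of 7, beside 99.2% and 94.7%, so full separation of the 24 was near what the lists show. Every overlap among the 24 was therefore a meeting of the replicate 2 libraries.

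Replicate 2 held the top knockdown value in 15 of the 24 that fell (62.5%), beside 67.2% of all listed genes that fell, and the bottom one in 5 of the 7 that rose, beside 60.1%. Among the wild type libraries replicate 2 was lowest in 9 of the 24 (37.5%), beside 54.9%. The genes with both features were 6 of 24, beside 38.7% of all listed genes that fell. They were the MYB genes LOC_Os03g18480, LOC_Os04g47890 and LOC_Os08g33660, the NAC gene LOC_Os10g27390, the AP2 gene LOC_Os05g25260 and WRKY17 (LOC_Os01g74140). At the other end, OsMADS57, the lower nuclear transcription factor Y gene LOC_Os08g09690 and WRKY19 had knockdown replicate 2 within 0.967 to 1.1 times the mean of replicates 1 and 3. Its part in the other genes' values was not tested.

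**Figure D4:**
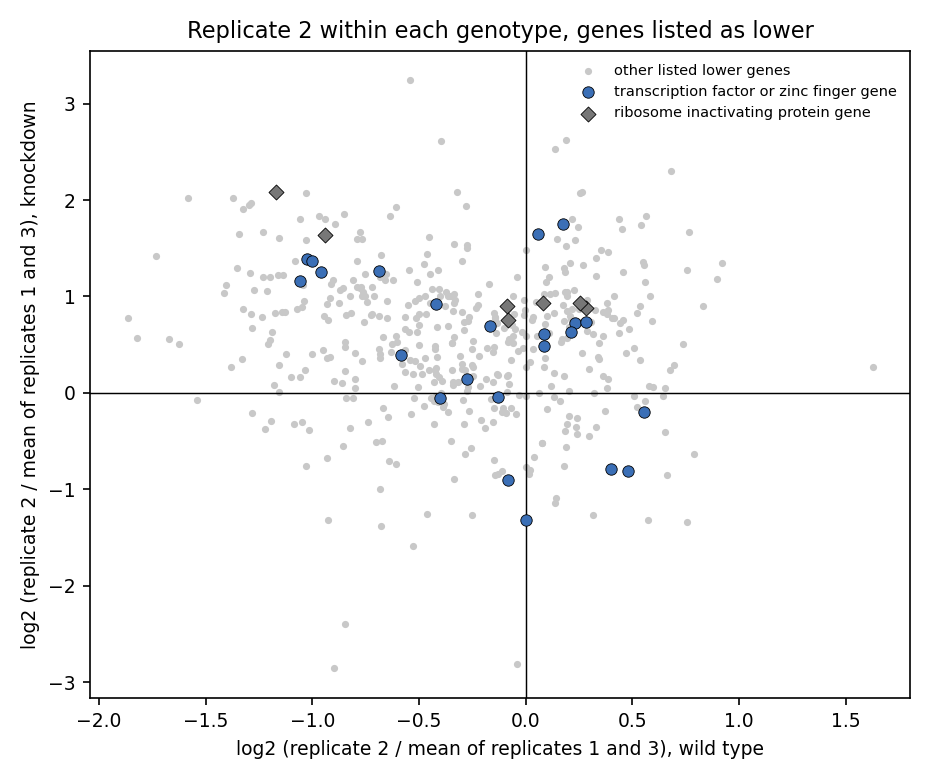
Log2 ratio of replicate 2 to the mean of replicates 1 and 3, in wild type (x axis) and in the knockdown (y axis), for the genes listed as lower with all values above 0. Of the 24 genes 23 are drawn (blue), and 16 of them lie above the horizontal line and 9 in the upper left, where replicate 2 of each genotype is displaced toward the other; the ribosome inactivating protein genes (grey diamonds) all lie above the line.

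Other genes with a role in transcription were counted from the same lists. By a list of words for chromatin proteins, other transcription factor families and the transcription machinery, 19 further genes were listed, of which 17 were lower and 2 higher, where 45.1% of all listed genes were lower, including 2 of the 4 regulators left out by the rule. The word list was chosen with these results known. Of the 17, 11 were without overlap (beside 89.1% of all listed genes that fell). The 6 that overlapped were the 6 histone genes, and in all 6 of them wild type replicate 2 lay below knockdown replicate 2. Among the rest 3 were heat shock factor type genes and 3 were described as DNA binding proteins. The heat shock factor type gene LOC_Os09g35790 fell from 7.09 ± 1.34 to 2.26 ± 0.137 FPKM (SD, n = 3 each). The growth regulating factor gene LOC_Os02g45570, of a family that promotes organ growth, went from 0.65, 0.61 and 1.29 FPKM to 0.43, 0.30 and 0.24 FPKM. The genes that rose were neighbours in locus number, both described as SCARECROW, a GRAS protein known in Arabidopsis from root patterning. LOC_Os11g47920 went from 2.25, 2.52 and 1.51 FPKM to 8.0, 7.15 and 7.04 FPKM and LOC_Os11g47910 from 0.23, 0.39 and 0.37 FPKM to 1.32, 1.09 and 1.16 FPKM. With the GRAS gene above, the 3 listed genes described as GRAS or SCARECROW were all higher in the knockdown, a grouping made after their values were seen.

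The 31 genes were spread over the genome. By their locus IDs they lay on 12 chromosomes, with at most 5 on any, on chromosome 3. A listed gene with the next locus number was found for 4 of the 31 (12.9%), beside 13.9% of all listed genes. Apart from the C2H2 pair, both cases joined a gene of the 31 that fell to an undescribed gene that rose. Next to the zinc finger gene LOC_Os06g04920, LOC_Os06g04930 went from 0.02, 0.03 and 0 FPKM to 0.35, 0.43 and 0.08 FPKM. Next to the NAC gene LOC_Os09g12380, LOC_Os09g12390 went from 0.61, 0.51 and 0.33 FPKM to 1.55, 1.51 and 1.53 FPKM.

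The small RNA tables list 124 short genome windows, 11 for 21-nt and 113 for 24-nt siRNA, in RPTM, a read count scaled to library size. Of the windows 100 lay in genes, few beside the 34271 genes tested in mRNA, so that the 0 windows found in the 38 genes matched by the rule say nothing particular about them. Windows in other genes with the same description words numbered 5, all for 24-nt siRNA, and none of those genes was in the mRNA lists (0 of 5). Each genotype had 1 small RNA library, so these are values of a pair of libraries, with exact binomial 95% intervals that cover counting error only. The window lists are labelled DER, read here as regions that differed between these libraries. Ratios and intervals taken on the counts that selected the windows are then no evidence of a change. The windows' coordinates are those of the files, whose genome build the labels do not name.

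Of these windows 3 were lower and 2 higher in the knockdown library. The window in the MYB gene LOC_Os08g43550, on chromosome 8 from 27551000 to 27551499, held 124 RPTM (100 reads) in wild type and no read in the knockdown, where a count of 0 allows up to 4.08 RPTM. The window in LOC_Os04g32620, the ethylene-responsive factor ERF114 on chromosome 4 from 19651000 to 19651499, held 109 and 9.51 RPTM, or 88 and 7 reads, an 11.5-fold lower value in the knockdown (interval 5.36 to 29.5). In LOC_Os05g23910, a histone-like transcription factor gene on chromosome 5 from 13751500 to 13751999, the values were 122 and 20.4 RPTM, or 5.98-fold lower (interval 3.45 to 11.1).

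The higher windows lay in a helix-loop-helix and a B3 gene. LOC_Os12g40730, on chromosome 12 from 25226000 to 25226499, held 29.9 RPTM in wild type and 207 RPTM in the knockdown, a 6.92-fold ratio (interval 4.48 to 11.1). LOC_Os04g58010, on chromosome 4 from 34550500 to 34550999, held 12.4 and 96.5 RPTM, a 7.76-fold ratio (interval 3.98 to 16.9). Among all listed 24-nt windows 26 were higher and 87 lower in the knockdown library.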

How the data were processed

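For genes they called higher or lower the authors deposited FPKM per library (2 decimals). Beside these stand, per the file headers, a log2 fold change (knockdown against wild type), its p-value and FDR, here called adjusted p. The small RNA tables deposited by the authors give a signal per window in RPTM. The tools were edgeR, Bowtie 1.1.2 and TopHat2 2.1.0, per the submitters' processing notes. No source used here gives the genome build, annotation, filters or handling of multiple matches. Depth is unknown, and replicates are not said to be separate plants, so p-values measure only the spread between these libraries, which may be technical.

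The fold change was log2: over 369 genes above 1 FPKM in both genotypes it differed from the log2 ratio of mean FPKM by at most 0.0326. The number of genes behind the adjusted p was the value from 10000 to 60000 at which p times that number over adjusted p was whole, to within 0.01, for the largest share of 300 genes (92% at 34271, next best 69.3%). RPTM values were whole multiples of 1.24 and 1.36, giving 8037518 wild type and 7358371 knockdown reads; a window without reads has a floor of 3 reads. Means and SD are over 3 libraries, and fold changes in words are ratios of mean FPKM.

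Settings were compared by limma 3.58.1 (R 4.3.3) on log2(FPKM + 0.5) over the 1174 listed genes, Benjamini-Hochberg adjusted over these; it was tested on simulated data. It adds no support, since genes were selected on the same values. Members, word lists and tests were chosen with earlier results of these data known. Genes named are up to 4 per family and direction whose deposited log2 fold change is largest in size, plus the 5 with the highest mean (30 of 31). The fifth NAC gene, the ribosome inactivating protein genes, other regulators, neighbours and windows were chosen by name once their values had been seen. The reference gene table matched 0 of the locus IDs.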

Additional observations from a re-analysis of the deposited data

How the results depend on the processing

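With all libraries the limma re-test over the listed genes called 22 of the 31 genes lower and 6 higher, beside 41.1% and 43.9% of the listed genes. Leaving out a library gave 13 to 23 lower and 3 to 7 higher, the fewest without wild type replicate 3 (13 and 3; without wild type replicate 2, 20 and 3). Without replicate 2 of both genotypes, a setting added after seeing the data, it gave 20 and 7. With the replicate number as a block it gave 12 and 5. Whether same-numbered libraries were paired is not known. Their deviations from the group means correlated with r = -0.0435, -0.531 and -0.427 across the 1174 genes, and no library correlated best with its own number. These genes were selected for a difference between the genotypes, so the correlations cannot decide the pairing. Pseudocounts of 0.1 and 1 gave 23 and 21 lower with 6 higher, and leaving out the lowest 25% of genes 18 and 5. No gene reversed its direction under any of these settings (0 of 334 comparisons). That outcome was nearly fixed in advance, since each gene was listed for a difference in its direction on these same values. The block and the omission of the lowest 25% leave each difference unchanged by construction. Of the 31 genes 13 passed under each setting that could be fitted. Re-test shares of all listed genes were counted only for the first re-test, so changes from it say nothing particular about the 31 genes. By the authors' own values, 5 were lower and 5 higher with the log2 limit raised to 2 (all listed genes: 90 and 396), and 14 lower and 4 higher with the adjusted p tightened to 0.01 (all listed genes: 328 and 474). Leaving out the 4 zinc finger genes that need not bind DNA gave 21 lower and 6 higher, and all letter matches gave 31 and 7. The median log2 difference was -0.83 and 0.87 at a pseudocount of 0.5, -1.18 and 1.36 at 0.1, and -0.61 and 0.59 at 1; leaving out a library gave -0.94 to -0.76 and 0.74 to 1.07. Counts of genes without overlap were 21 to 24 and 5 to 7, beside 89.1% to 99.4% and 84.6% to 97.2% of all listed genes of each direction. A larger pseudocount shrinks differences of low genes by construction; other causes were not tested.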
